A study of Mus musculus with 28 samples.

Results

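The genes described here are 9 markers used to recognise mammary progenitor cells or to sort mammary cells by their surface: Ly6a, Ly6d, Ly6e, Kit, Aldh1a3, Cd14, Prom1, Cd24a and Procr. They were taken from a fixed list of symbols, which was chosen with earlier results of these data known. All 9 matched an Ensembl identifier among the 56748 in the count tables. The study sequenced total RNA, after removal of ribosomal RNA, from a pair of mouse mammary epithelial lines. The groups were 8 libraries of 4T1, labelled as cancer cells with the treatment DOX, 10 libraries of HC11, labelled as untransformed cells, with DOX + DIP, and 10 libraries of HC11 with DOX. DOX is therefore shared by every group, so that no library without DOX was analysed here, and DIP differs between the HC11 groups only. The labels spell out neither DOX nor DIP, and name no construct, culture, passage or batch. HC11 is a line derived from mammary tissue of a mid-pregnant mouse and is used to study lactogenic differentiation, and 4T1 is a mammary carcinoma line of BALB/c origin. Both are lines grown in culture, so 1 line stands for each state and a difference between 4T1 and HC11 cannot be told apart from a difference between those lines.

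Depth ran from 134117581 to 222065843 gene counts per library, so that 3 counts correspond to between 0.0135 and 0.0224 CPM (gene counts scaled to a common library size). Levels are given as CPM scaled with TMM factors over all 28 libraries, and differences as log2 fold changes ± their standard error. Each adjusted p comes from the quasi-likelihood F test of edgeR, corrected over all genes tested by the Benjamini-Hochberg procedure, and a gene was called at an adjusted p under 0.05. Library numbers follow the series and serve only as names. Since nothing says that they came from separate cultures, the p-values measure the spread between these libraries, which may be technical. Libraries 8 and 10 of HC11 DOX + DIP stood apart: their mean correlation with the other 8 was 0.927 and 0.931, against 0.973 to 0.982 for each of those 8, and 0.988 with each other. The 4T1 libraries held some signal of 239 genes typical of HC11. It was at a median of 3.01% and 4.40% of the HC11 DOX level in 4T1 libraries 1 and 2, and 0.519% to 1.35% in the other 6. These genes were chosen by a mean above 10 CPM in HC11 DOX and a 4T1 median under 2% of that mean. Low percentages in 4T1 therefore follow from the choice, and only the difference between 4T1 libraries is described by them. A result is also given without these libraries where leaving them out changed its call or moved its fold change by more than 1.5 times. The epithelial markers Epcam, Cdh1, Krt8, Krt18, Krt5 and Krt14 were present in every group and summed to 2134 to 3038 CPM in 4T1, 444 to 2211 CPM in HC11 DOX + DIP and 3446 to 7996 CPM in HC11 DOX. The sum joins genes that moved in opposite directions. In 4T1 against HC11 DOX the log2 fold change was 5.85 for Krt18, 2.92 for Krt8 and 0.09 for Cdh1 (not called). It was -6.65 for Krt5, -3.01 for Krt14 and -1.41 for Epcam, and -7.69 for Krt5 without 4T1 libraries 1 and 2.

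The mammary gland is a bilayer of luminal cells, which face the duct and make milk, and basal cells, which contract and hold much of the stem cell activity seen on transplantation. Luminal progenitors of the mouse are enriched by sorting for KIT, CD14 and high aldehyde dehydrogenase activity, hormone-sensing luminal cells express SCA-1 (the product of Ly6a) and prominin-1, CD24 separates epithelial cells from stroma, and the protein C receptor marks a stem-like basal population. These proteins act in different ways, as GPI-anchored surface proteins of the Ly6 family, as a receptor tyrosine kinase, as a co-receptor for lipopolysaccharide or as an enzyme of retinoic acid synthesis, and what they share is their use as markers.

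Of the 9 genes, 2 were higher and 5 lower in 4T1 than in HC11 DOX among the 8 tested, and 1 was higher and 3 lower in HC11 DOX + DIP than in HC11 DOX among the 9 tested. In 4T1 the rises were in Procr and Cd14 and the falls in Ly6a, Ly6d, Ly6e, Prom1 and Cd24a. With DIP the rise was in Cd14 and the falls in Ly6a, Aldh1a3 and Prom1. These counts stand against a background in which calls were common. For 4T1 against HC11 DOX, 69.9% of 23875 genes were called, 34.3% higher and 35.6% lower, and 32.7% were called and differed at least 2-fold. For DIP in HC11, 45.5% of 23829 genes were called, 24.5% higher and 21.0% lower, and 20.3% were called and differed at least 2-fold. The groups did not overlap for 6 of the 8 genes tested in 4T1 against HC11 DOX and for 1 of 9 with DIP, where 36.8% and 11.4% of all genes tested had groups that did not overlap. For 4T1 against HC11 DOX + DIP, which differ in both the line and DIP, 2 of the 8 genes tested were higher (Procr and Aldh1a3) and 5 lower (Ly6a, Ly6d, Ly6e, Kit and Cd24a), against 73.8% of 24132 genes called, 35.9% higher and 37.9% lower, and 46.9% called at least 2-fold. Here 2 of the 8 genes tested had groups that did not overlap, against 39.6% of all genes tested. With DIP the share called among the 9 genes was thus near the background. In both comparisons of 4T1, 7 of 8 genes were called, which for so few genes is near the 69.9% and 73.8% over all genes. The share without overlap was above the background against HC11 DOX and below it against HC11 DOX + DIP. With 8 genes chosen with earlier results known, these shares are a description only. The comparisons share libraries, so they are not independent of one another. Counts of called genes in the lists below are to be read against the same shares over all genes.

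**Figure D1:**
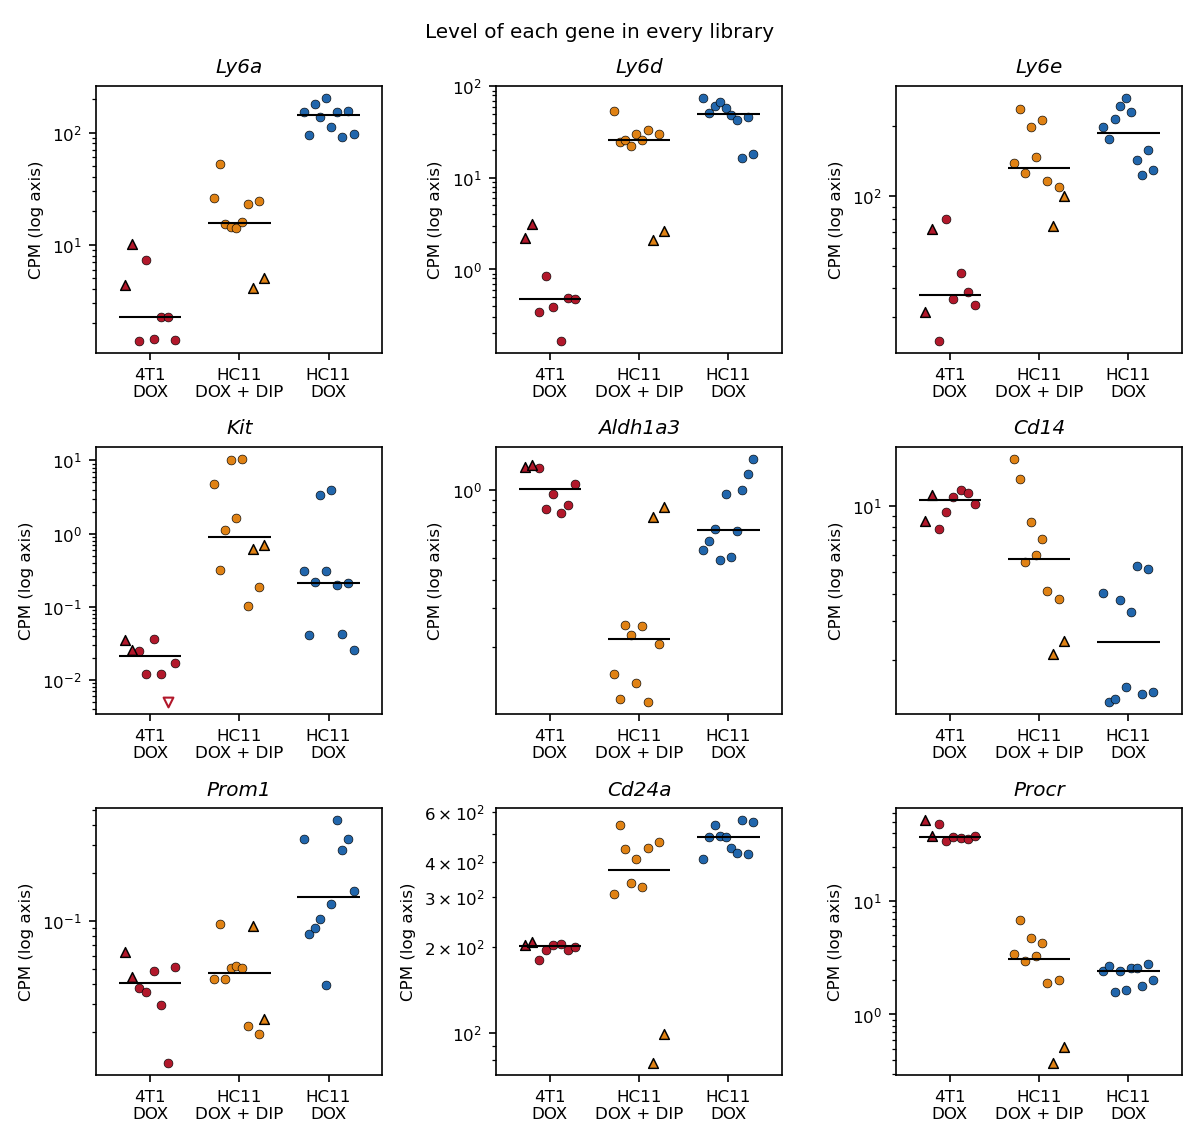
Level of each of the 9 genes in every library, in CPM on a log axis, for 4T1 DOX (red), HC11 DOX + DIP (orange) and HC11 DOX (blue), with the group median as a line. Triangles with a dark edge mark 4T1 libraries 1 and 2 and HC11 DOX + DIP libraries 8 and 10, and the open triangle marks a library with a Kit count of 0. Procr is at 33.6 to 51.5 CPM in 4T1 and at most 6.77 CPM in HC11, and Ly6a lies in 3 steps.

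**Figure D2:**
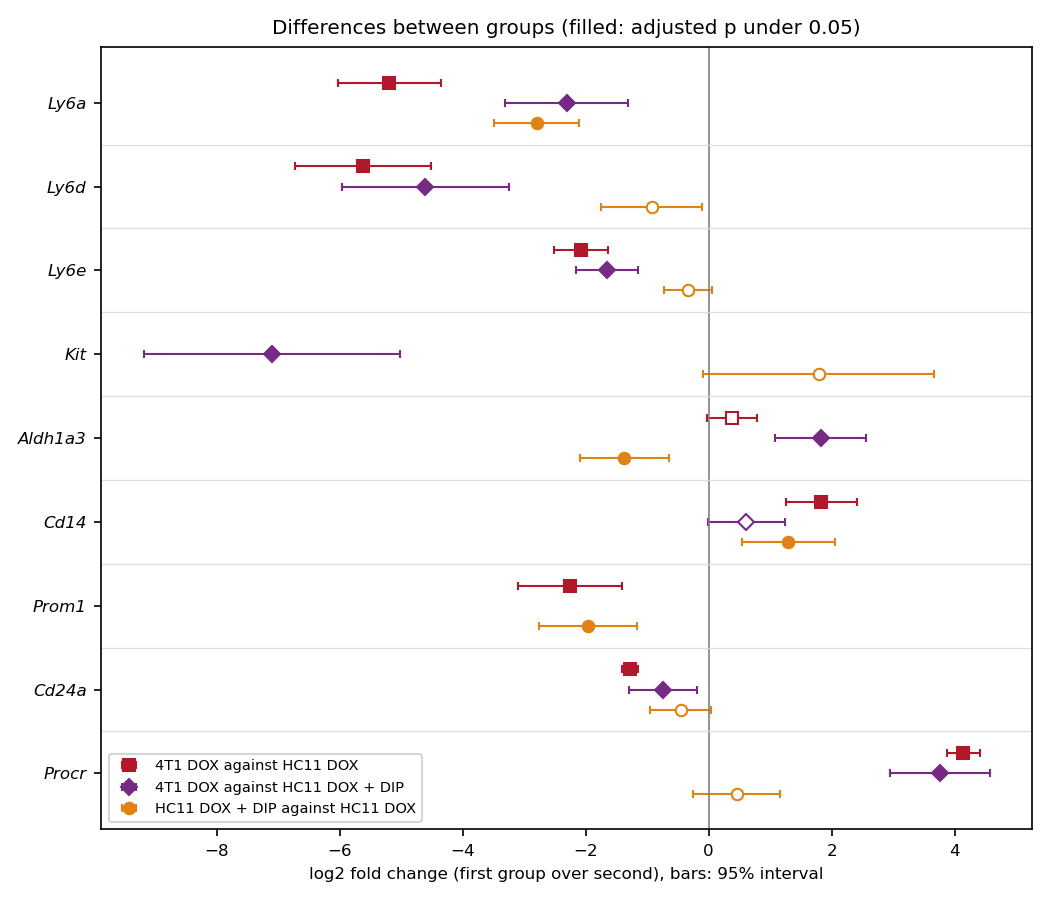
Log2 fold change of each of the 9 genes in the 3 comparisons, with bars for the 95% interval, and filled symbols at an adjusted p under 0.05. Kit has no symbol for 4T1 DOX against HC11 DOX, and Prom1 none for 4T1 DOX against HC11 DOX + DIP, since the filter on low counts removed them there.

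Ly6a, Ly6d and Ly6e encode small GPI-anchored proteins with the 3-finger fold of the Ly6/uPAR family, and lie in the Ly6 cluster of chromosome 15. In GRCm38 coordinates Ly6a is at chr15:74994877-74998031 on the minus strand, Ly6d at chr15:74762056-74763620 on the minus strand and Ly6e at chr15:74955051-74959905 on the plus strand. Ly6a has close relatives in this cluster, and its transcripts share stretches of at least 200 bases at 90% identity or more with Ly6c1 (263 bases at 96.6%), Ly6c2 (245 bases at 94.3%) and Ly6i (336 bases at 92.6%). The start of the coding sequences of Ly6a and Ly6c1, 90 bases from the start codon in the GENCODE vM21 transcripts, is shown because the counting of reads in this region bears on every Ly6a value below. Capitals mark the 4 bases that differ.
Ly6a: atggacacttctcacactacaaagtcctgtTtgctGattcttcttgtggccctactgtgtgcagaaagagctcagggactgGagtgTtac
Ly6c1: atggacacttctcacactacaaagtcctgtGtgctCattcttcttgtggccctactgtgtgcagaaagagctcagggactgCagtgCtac
Over the whole coding sequence Ly6a and Ly6c1 were 81.8% identical, whereas Ly6a was 49.3% identical to Ly6d and 52.2% to Ly6e. How the authors' counting split reads between such copies is not given in the sources used here, so the values of Ly6a and Ly6c1 are uncertain to that extent. Summed over all libraries Ly6a had 274489 counts and Ly6c1 44186, so Ly6a was the larger of the pair.

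Ly6a, which encodes the stem cell antigen SCA-1, fell in 3 steps across the groups. It had 1.39, 2.28 and 10.1 CPM in 4T1 (lowest, median and highest of 8), 4.10, 15.6 and 52.0 CPM in HC11 DOX + DIP (of 10) and 90.9, 145 and 203 CPM in HC11 DOX (of 10). Every HC11 DOX library was above every library of the other groups, and 4T1 libraries 1, 2 and 4, at 4.36, 10.1 and 7.37 CPM, overlapped with DIP libraries 8 and 10, at 4.10 and 5.01 CPM. DIP in HC11 gave a log2 fold change of -2.79 ± 0.35, which is 6.92-fold lower (adjusted p = 1.37e-06), and -2.55 without DIP libraries 8 and 10 (adjusted p = 1.05e-07). 4T1 was 36.6-fold lower than HC11 DOX, at a log2 fold change of -5.19 ± 0.43 (adjusted p = 1.54e-09). It was also lower than HC11 DOX + DIP, by a log2 fold change of -2.31 ± 0.51 (adjusted p = 0.000434). Relative to the HC11 DOX mean, the Ly6a level of 4T1 was 3.17% in library 1, 7.37% in library 2 and 5.36% in library 4, and 1.01% to 1.66% in the other 5. Libraries 1 and 2 are those with the most signal of HC11-typical genes, a set whose rule Ly6a itself meets. Without them the log2 fold change against HC11 DOX was -5.65, and the part of that signal in the Ly6a level was not tested. In these bulk samples, fewer cells that express a gene and less RNA per cell cannot be told apart, here and in all that follows.

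Ly6d, which encodes a surface protein of epidermal and stratified epithelia that is also used to subdivide luminal mammary cells, was high in HC11 and low in 4T1. It had 0.166, 0.481 and 3.13 CPM in 4T1, 2.08, 25.9 and 53.8 CPM in HC11 DOX + DIP and 16.5, 50.3 and 74.3 CPM in HC11 DOX. Every 4T1 library was below every HC11 DOX library, and only DIP libraries 8 and 10, at 2.08 and 2.65 CPM, came into the range of 4T1. HC11 DOX libraries 8 and 10 were also the lowest of their group, at 16.5 and 18.3 CPM, and the others had 42.9 to 74.3 CPM. The labels tie no number of one group to that of the other. 4T1 was 49.1-fold lower than HC11 DOX, at a log2 fold change of -5.62 ± 0.56 (adjusted p = 2.53e-08). It was lower than HC11 DOX + DIP as well, by a log2 fold change of -4.61 ± 0.69 (adjusted p = 6.59e-06). As a percentage of the HC11 DOX mean, Ly6d in 4T1 was 4.52% in library 1 and 6.45% in library 2, against medians of 3.01% and 4.40% for the 239 HC11-typical genes in the same libraries. In the other 6 4T1 libraries Ly6d was at 0.342% to 1.77%, against 0.519% to 1.35% for those genes. Ly6d itself meets the rule that chose those genes, so a likeness of these percentages is largely fixed by the choice. Without libraries 1 and 2 the log2 fold change was -6.72 against HC11 DOX and -5.77 against HC11 DOX + DIP, and how much of the Ly6d signal came from 4T1 cells was not tested. With DIP, Ly6d had a log2 fold change of -0.93 ± 0.42 that was not called (adjusted p = 0.077). It passed the threshold without DIP libraries 8 and 10 (-0.64, adjusted p = 0.0417), without DIP library 1 (adjusted p = 0.0378) and without DOX library 8 (adjusted p = 0.0492), as well as in DESeq2 (adjusted p = 0.0477) and limma voom (adjusted p = 0.0472).

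Ly6e, a broadly expressed and interferon-inducible member of the family, kept a sizeable level in all groups. It had 23.7, 37.3 and 79.3 CPM in 4T1, 74.4, 132 and 238 CPM in HC11 DOX + DIP and 124, 187 and 265 CPM in HC11 DOX. All 4T1 libraries were below all HC11 DOX libraries, the highest of them reached the lowest DIP library, and the HC11 groups overlapped over most of their range. 4T1 was lower than HC11 DOX by a log2 fold change of -2.08 ± 0.23 (adjusted p = 8.64e-08), while the difference from HC11 DOX + DIP was a log2 fold change of -1.65 ± 0.26 (adjusted p = 1.10e-05). DIP gave a log2 fold change of -0.34 ± 0.20 that was not called (adjusted p = 0.17), with a 95% interval of -0.73 to 0.05. Within 4T1 the highest libraries of Ly6e were 2 and 4, at 71.9 and 79.3 CPM, which were also the highest for Ly6a.

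The other genes of the Ly6/uPAR family were lower in 4T1 in most cases. Of 14 tested, 3 were higher and 11 lower than in HC11 DOX, with a median log2 fold change of -3.86, where the median over all genes was -0.01. Without 4T1 libraries 1 and 2, 15 were tested, of which 3 were higher and 12 lower, with a median of -4.57. Over all libraries, 34.3% of all genes tested were called higher and 35.6% lower. Ly6c1, a surface marker of leukocyte and endothelial subsets, averaged 0.698 ± 0.508 CPM in 4T1 and 19.6 ± 6.12 CPM in HC11 DOX (SD, n = 8 and 10), a log2 fold change of -4.83 (adjusted p = 5.51e-10). Lynx1, which encodes a modulator of nicotinic acetylcholine receptors, had a log2 fold change of -4.95. Plaur, the receptor for the urokinase plasminogen activator, went the other way, with 75.4 ± 9.38 CPM in 4T1 against 7.48 ± 2.69 CPM in HC11 DOX, a log2 fold change of 3.34 (adjusted p = 2.65e-12). Against HC11 DOX + DIP, 3 of 14 were higher and 9 lower.

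With DIP in HC11, 2 of the 13 other family genes tested were higher and 6 lower, with a median log2 fold change of -0.38, against 0.06 over all genes. The shares over all genes were 24.5% higher and 21.0% lower. Ly6c1 fell by a log2 fold change of -1.82 (adjusted p = 0.000246), Lypd3 by -2.01 (adjusted p = 4.97e-06), and Plaur rose by 1.23 (adjusted p = 0.000607). The relatives that share sequence with Ly6a all fell: besides Ly6c1, the log2 fold change was -2.85 for Ly6i and -1.29 for Ly6c2, beside -2.79 for Ly6a itself, and these are not independent measurements if reads were split between them. Without DIP libraries 8 and 10, 3 of 15 tested were higher and 8 lower.

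Procr encodes the endothelial protein C receptor, which presents protein C to the thrombin-thrombomodulin complex. It lies at chr2:155751117-155755471 on the plus strand of GRCm38, and had the largest rise of the 9 genes in 4T1. Its promoter, from 250 bases before to 50 after the RefSeq start (GRCm38.p6, chr2:155750967-155751266, plus strand), is shown since Procr is the gene among the 9 that separated the lines most cleanly. Capitals mark the match to the AP-1 motif TGANTCA, searched on both strands.
Procr: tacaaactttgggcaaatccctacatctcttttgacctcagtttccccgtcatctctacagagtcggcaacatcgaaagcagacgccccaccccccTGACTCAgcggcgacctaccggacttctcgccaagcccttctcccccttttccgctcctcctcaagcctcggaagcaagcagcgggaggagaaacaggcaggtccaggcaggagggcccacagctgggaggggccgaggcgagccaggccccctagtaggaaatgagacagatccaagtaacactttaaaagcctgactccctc
The motif was present in 7.808% of 32851 promoter windows of the same length, and its presence here is a description of the letters, not a sign of binding. It is not particular to Procr among the genes searched. Each window of Prom1, which was lower in 4T1 than in HC11 DOX, held a match as well, and those of Kit held none. The Procr window held no match to the STAT motif TTCNNNGAA, found in 8.298% of the windows, nor to the glucocorticoid receptor core site AGAACA, found in 18.974%.

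Procr had 33.6, 36.9 and 51.5 CPM in 4T1, 0.375, 3.11 and 6.77 CPM in HC11 DOX + DIP and 1.57, 2.42 and 2.76 CPM in HC11 DOX. Every 4T1 library was above every HC11 library. The lowest 4T1 library held 5535 Procr counts and the highest HC11 DOX library 496. 4T1 was 17.6-fold higher than HC11 DOX, at a log2 fold change of 4.14 ± 0.14 (adjusted p = 2.23e-15). It was 13.5-fold higher than HC11 DOX + DIP, at 3.76 ± 0.41 (adjusted p = 1.11e-07). With DIP, Procr was at 0.375 and 0.513 CPM in libraries 8 and 10, below all DOX libraries, while the other 8 ranged from 1.91 to 6.77 CPM, with 6 of them above the highest DOX library. The log2 fold change over all 10 DIP libraries was 0.46 ± 0.36 and was not called (adjusted p = 0.319), and without libraries 8 and 10 it was 0.73 and was called (adjusted p = 0.00734). Procr is also known from endothelial cells and fibroblasts. The 6 endothelial markers summed to 0.136 to 0.352 CPM in 4T1, 0.525 to 2.77 CPM in HC11 DOX + DIP and 3.44 to 5.60 CPM in HC11 DOX, and the 5 fibroblast markers to 8.92 to 14.3, 2.66 to 248 and 27.9 to 65.6 CPM, so both sums were lower in every 4T1 library than in any HC11 DOX library.

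Of the 6 other genes of protein C signalling and coagulation tested, 2 were higher and 1 lower in 4T1 than in HC11 DOX. The shares over all genes were 34.3% higher and 35.6% lower there, and 24.5% and 21.0% with DIP. F2r, which encodes the thrombin receptor PAR1 through which activated protein C bound to its receptor signals, averaged 64.0 ± 5.88 CPM in 4T1 against 4.86 ± 1.25 CPM in HC11 DOX, a log2 fold change of 3.72. F2rl1, which encodes PAR2, rose by a log2 fold change of 0.58, and F3, which encodes tissue factor, was lower (-1.05), at 13.5 ± 2.54 CPM in 4T1 against 27.6 ± 8.56 CPM in HC11 DOX. The median log2 fold change of the list was 0.40. Without 4T1 libraries 1 and 2, 8 genes were tested, of which 2 were higher and 3 lower, with a median of 0.17. With DIP, 1 of 6 was higher and 2 lower. F3 rose, to 91.1 ± 69.1 CPM in HC11 DOX + DIP against 27.6 ± 8.56 CPM in HC11 DOX (log2 fold change 1.75, adjusted p = 0.00043), while F2r was lower (log2 fold change -0.57, adjusted p = 0.0253). Without DIP libraries 8 and 10, F2r was not called (-0.45, adjusted p = 0.0592), which left 1 of 6 higher and 1 lower. In 4T1 against HC11 DOX + DIP, 4 of 6 were higher and 1 lower.

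Cd24a, which encodes the heavily glycosylated GPI-anchored CD24, lies at chr10:43578284-43584265 on the plus strand of GRCm38 and was abundant in every group. It had 181, 202 and 208 CPM in 4T1, 78.5, 374 and 537 CPM in HC11 DOX + DIP and 410, 489 and 560 CPM in HC11 DOX. The highest 4T1 library was 1.15 times the lowest, and all 8 were below all HC11 DOX libraries. 4T1 was lower than HC11 DOX by a log2 fold change of -1.28 ± 0.07, which is 2.43-fold (adjusted p = 2.77e-12). With DIP, libraries 8 and 10 had 78.5 and 98.8 CPM, below every other library of any group, and the other 8 had 308 to 537 CPM. The log2 fold change was -0.46 ± 0.25 and was not called (adjusted p = 0.151), and -0.22 without libraries 8 and 10 (adjusted p = 0.0985). 4T1 against HC11 DOX + DIP gave -0.74 ± 0.28 (adjusted p = 0.0226), -1.05 without DIP libraries 8 and 10 (adjusted p = 3.24e-08), and -0.53 in limma voom, where it was not called (adjusted p = 0.141). The pseudogene Gm6212 shares 218 bases with Cd24a at 96.8% identity and had 11806 counts over all libraries, against 1709209 for Cd24a.

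Prom1, which encodes the cholesterol-binding membrane protein prominin-1 (CD133), lies at chr5:43993620-44102032 on the minus strand of GRCm38 and was close to the limit of detection. It had 0.0128, 0.0408 and 0.0633 CPM in 4T1, 0.0193, 0.0468 and 0.0953 CPM in HC11 DOX + DIP and 0.0397, 0.141 and 0.43 CPM in HC11 DOX. These correspond to 2 to 11, 3 to 17 and 7 to 78 counts per library, so that the levels of 4T1 and of HC11 DOX + DIP rest on few reads. Of the 10 HC11 DOX libraries, 7 were above every library of the other groups, and the lowest 3 overlapped with them. 4T1 was lower than HC11 DOX by a log2 fold change of -2.25 ± 0.43 (adjusted p = 0.000109). The log2 fold change with DIP was -1.96 ± 0.41 (adjusted p = 0.000476). 4T1 was not tested against HC11 DOX + DIP, because the filter removed Prom1 there, and with no filter the log2 fold change was -0.24 (adjusted p = 0.61). Prom1 transcripts share stretches of at least 200 bases with 47 other genes, which adds to the uncertainty at this level.

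Among 4 partners and relatives of prominin-1 and CD24 tested, 3 were higher and 1 lower in 4T1 than in HC11 DOX. The shares over all genes were 34.3% higher and 35.6% lower there, and 24.5% and 21.0% with DIP. Prom2, the epithelial relative of Prom1, was far more abundant than Prom1 in HC11 and fell in 4T1, to 4.15 ± 1.29 CPM against 71.9 ± 21.3 CPM in HC11 DOX (log2 fold change -4.12, adjusted p = 4.73e-12). L1cam, which encodes an adhesion molecule that binds CD24, rose by a log2 fold change of 0.64 (adjusted p = 0.0153). With DIP, 0 of 3 were called by edgeR, DESeq2 or limma voom, with 0 at an unadjusted p under 0.05 in edgeR. Prom2 had 101 ± 57.0 CPM in HC11 DOX + DIP and 71.9 ± 21.3 CPM in HC11 DOX. Without DIP libraries 8 and 10, 1 of 3 was called higher, which was Prom2 (log2 fold change 0.81, adjusted p = 0.00154).

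Kit encodes the receptor tyrosine kinase for stem cell factor and lies at chr5:75574916-75656722 on the plus strand of GRCm38. It was at or near the floor in every 4T1 library and varied among HC11 libraries more than any other of the 9 genes. The 8 4T1 libraries had between 0 and 0.0364 CPM, or 27 counts in all, with library 7 at 0, which allows up to 3 counts. The 10 HC11 DOX + DIP libraries had 4.75, 0.320, 1.12, 10.04, 1.64, 10.4, 0.101, 0.625, 0.187 and 0.689 CPM in library order. The 10 HC11 DOX libraries had 0.307, 0.0412, 0.216, 3.41, 0.306, 3.98, 0.198, 0.0428, 0.212 and 0.0256 CPM in library order. Libraries 4 and 6 stood out in both HC11 groups, although the labels tie no number of one group to that of the other, and the highest library was 103 times the lowest with DIP and 156 times with DOX alone.

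The HC11 groups overlapped widely for Kit, and 3 of the 10 DIP libraries were above every DOX library. The log2 fold change with DIP was 1.79 ± 0.96 and was not called (adjusted p = 0.137), with a 95% interval of -0.10 to 3.67. Without DOX library 6 it was 2.50 and was called (adjusted p = 0.0434), and without DIP libraries 8 and 10 it was 2.04 (adjusted p = 0.0947). 4T1 lay below HC11 DOX + DIP with no overlap, at a log2 fold change of -7.11 ± 1.06 (adjusted p = 6.20e-06). Against HC11 DOX the filter on low counts removed Kit, and with no filter the log2 fold change was -5.33 (adjusted p = 0.000944), with HC11 DOX libraries 2, 8 and 10 at 0.0256 to 0.0428 CPM near or within the range of 4T1. Without 4T1 libraries 1 and 2 Kit passed the filter, at a log2 fold change of -5.59 (adjusted p = 0.00121). It also passed when any single 4T1 library was left out, at log2 fold changes of -5.57 to -5.23. Passing is thus not particular to libraries 1 and 2. In each comparison with 4T1, Kit passed through HC11 libraries where it is high, so the direction follows largely from the filter. Kit is also a defining receptor of mast cells, whose markers Mcpt4 and Fcer1a were at 0 in all 28 libraries, and the 6 mast cell markers summed to at most 0.402 CPM in any library.

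KIT signals through adaptors, phosphatidylinositol 3-kinase and SRC family kinases. Over all genes tested, 24.5% were called higher and 21.0% lower with DIP, and 34.3% and 35.6% in 4T1 against HC11 DOX. With DIP, 6 of the 14 other genes of the KIT pathway were higher and 0 lower by edgeR, with a median log2 fold change of 0.35. None was lower by DESeq2, limma voom or an unadjusted p under 0.05 in edgeR. Kitl, which encodes the ligand stem cell factor, rose most among these, to 150 ± 90.3 CPM in HC11 DOX + DIP against 16.5 ± 6.61 CPM in HC11 DOX (log2 fold change 3.20 ± 0.54, adjusted p = 5.01e-05). The DIP libraries ranged from 4.93 to 274 CPM, so they overlapped with the DOX range of 7.15 to 25.0 CPM, and without DIP libraries 8 and 10 the log2 fold change was 3.51 (adjusted p = 1.24e-09). Pik3r1, the regulatory subunit of phosphatidylinositol 3-kinase, rose by a log2 fold change of 2.33, and Mitf, a transcription factor downstream of KIT in melanocytes, by 1.03. In 4T1 against HC11 DOX, 5 of 14 were higher and 5 lower, with a median of -0.01. The SRC family kinase gene Lyn averaged 24.2 ± 2.0 CPM in 4T1 against 0.856 ± 0.634 CPM in HC11 DOX (log2 fold change 4.82), while Fyn was lower (-2.03). Etv1, an ETS factor stabilised by KIT signalling in interstitial cells of the gut, averaged 20.8 ± 2.35 CPM in 4T1 and 0.0797 ± 0.091 CPM in HC11 DOX (log2 fold change 8.01). When 4T1 was set against HC11 DOX + DIP, 4 of 14 were higher and 6 lower.

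Aldh1a3 encodes a retinaldehyde dehydrogenase, which makes retinoic acid, and lies at chr7:66390890-66427517 on the minus strand of GRCm38. It was expressed at a low level, and most HC11 DOX + DIP libraries lay below the range of HC11 DOX. It had 0.789, 1.02 and 1.30 CPM in 4T1, 0.114, 0.216 and 0.846 CPM in HC11 DOX + DIP and 0.489, 0.667 and 1.37 CPM in HC11 DOX, or 21 to 220 counts per library. DIP libraries 8 and 10 were at 0.756 and 0.846 CPM, within the DOX range, and the other 8 were at 0.114 to 0.251 CPM, all below every DOX library. DIP gave a log2 fold change of -1.37 ± 0.37 (adjusted p = 0.00456) over all libraries and -2.12 without libraries 8 and 10 (adjusted p = 1.03e-06). 4T1 was higher than HC11 DOX + DIP by a log2 fold change of 1.82 ± 0.38 (adjusted p = 0.000244), or by 2.50 without DIP libraries 8 and 10 (adjusted p = 3.09e-09). Against HC11 DOX the log2 fold change of 0.38 ± 0.21 was not called (adjusted p = 0.111), and it was 0.49 and called without DOX library 10 (adjusted p = 0.0315). Aldh1a3 transcripts share stretches of at least 200 bases with 11 other genes.

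Aldh1a1, the other enzyme associated with aldehyde dehydrogenase activity in sorted cells, averaged 0.0173 ± 0.0137 CPM in 4T1, 0.232 ± 0.199 CPM in HC11 DOX + DIP and 0.0201 ± 0.0136 CPM in HC11 DOX, and was named after its values were seen. The levels in 4T1 and HC11 DOX were near the floor. The filter on low counts removed Aldh1a1 from the test of DIP over all libraries. Without DIP libraries 8 and 10 its log2 fold change was 3.77 (adjusted p = 4.04e-06). It was lower in 4T1 than in HC11 DOX + DIP, by a log2 fold change of -3.64 (adjusted p = 8.67e-05). In both fits Aldh1a1 passed the filter through the HC11 DOX + DIP libraries, the group where it is high. The direction and the call follow largely from that, so they are a description only. Of 15 other aldehyde dehydrogenase genes tested with DIP, 3 were higher and 2 lower, with a median log2 fold change of 0.43. Beside these counts, 24.5% of all genes were higher and 21.0% lower with DIP. In 4T1 the shares were 34.3% and 35.6% against HC11 DOX, and 35.9% and 37.9% against HC11 DOX + DIP. Aldh6a1, the mitochondrial enzyme of valine breakdown, rose to 37.6 ± 17.0 CPM in HC11 DOX + DIP against 6.81 ± 3.05 CPM in HC11 DOX (log2 fold change 2.49, adjusted p = 8.94e-06), and Aldh3a2, which oxidises fatty aldehydes, rose by 0.63. Aldh16a1 fell by a log2 fold change of -0.89. Without DIP libraries 8 and 10, 7 of 16 were higher and 2 lower. In 4T1, 5 of 15 were higher and 6 lower than in HC11 DOX, among them Aldh1l2, the mitochondrial formyltetrahydrofolate dehydrogenase, at 2.82 ± 1.08 CPM in 4T1 against 45.2 ± 16.8 CPM in HC11 DOX (log2 fold change -4.02), Aldh6a1 (-1.29) and Aldh5a1 (1.42). Against HC11 DOX + DIP, 6 of 16 were higher and 7 lower.

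Of 11 other genes of retinoid handling and response, 2 were higher and 4 lower with DIP, and 2 higher and 6 lower in 4T1 than in HC11 DOX. Their median log2 fold changes were -0.20 and -1.33. Beside them, 24.5% of all genes were higher and 21.0% lower with DIP, and 34.3% and 35.6% in 4T1. Cyp26b1, which degrades retinoic acid and is induced by it, averaged 19.3 ± 14.8 CPM in HC11 DOX + DIP against 74.6 ± 26.2 CPM in HC11 DOX (log2 fold change -1.93, adjusted p = 0.000986), and 0.895 ± 0.983 CPM in 4T1 (log2 fold change against HC11 DOX -6.39). Crabp2, which carries retinoic acid to its receptors, fell by a log2 fold change of -1.41 with DIP and was lower by -3.84 in 4T1 than in HC11 DOX. Dhrs3, which reduces retinaldehyde back to retinol, was at 0.377 ± 0.307 CPM in 4T1 against 17.9 ± 5.30 CPM in HC11 DOX (log2 fold change -5.59). Without 4T1 libraries 1 and 2 the log2 fold change was -7.55 for Cyp26b1 and -6.27 for Dhrs3. The receptor gene Rxra fell slightly with DIP (log2 fold change -0.45, adjusted p = 0.0146). Relative to HC11 DOX + DIP, 1 of 12 was higher in 4T1 and 6 lower.

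Cd14 encodes the GPI-anchored co-receptor that hands lipopolysaccharide to TLR4, and lies at chr18:36725067-36726798 on the minus strand of GRCm38. Over all libraries it was the only gene of the 9 called higher both with DIP and in 4T1 relative to HC11 DOX, comparisons that share the HC11 DOX libraries, and without DIP libraries 8 and 10 Procr was so as well. It had 7.89, 10.6 and 11.8 CPM in 4T1, 2.14, 5.76 and 16.3 CPM in HC11 DOX + DIP and 1.29, 2.41 and 5.37 CPM in HC11 DOX. All 4T1 libraries were above all HC11 DOX libraries, and the DIP libraries overlapped with both. DIP gave a log2 fold change of 1.30 ± 0.39 (adjusted p = 0.00924), or 1.51 without libraries 8 and 10 (adjusted p = 0.00155), which were the lowest of the DIP libraries at 2.14 and 2.45 CPM. 4T1 was 3.55-fold higher than HC11 DOX, at a log2 fold change of 1.83 ± 0.29 (adjusted p = 1.44e-05). Against HC11 DOX + DIP the log2 fold change was 0.61 ± 0.32 and was not called (adjusted p = 0.0925). It was called without DIP library 1 (0.83, adjusted p = 0.015), without DIP library 2 (0.75, adjusted p = 0.0379) and in limma voom (0.87, adjusted p = 0.0162), and those libraries held the highest DIP values, 16.3 and 13.2 CPM.

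Cd14 is best known from monocytes and macrophages, so the immune markers are given beside it. Of 8 immune markers, Cd3e and Adgre1 were at 0 in every 4T1 library, Ptprc (CD45) was at most 0.0606 CPM in any library, and the sum of the list was 15.0 to 22.8 CPM in 4T1, 10.97 to 28.2 CPM in HC11 DOX + DIP and 8.81 to 12.2 CPM in HC11 DOX. Most of that sum came from Csf1r, at 11.9 ± 1.26, 9.69 ± 3.02 and 8.05 ± 0.943 CPM in these groups, and Cd68, at 5.35 ± 2.12, 6.05 ± 3.46 and 2.34 ± 0.463 CPM. Only Cd68, Csf1r and Fcgr1, which encodes a high-affinity Fc receptor of monocytes and macrophages, were high enough to be tested. Their counts stand beside 24.5% of all genes higher and 21.0% lower with DIP, and 34.3% and 35.6% in 4T1 against HC11 DOX. With DIP, 2 were higher and 0 lower by edgeR, DESeq2, limma voom or an unadjusted p under 0.05 in edgeR: Cd68 (log2 fold change 1.39, adjusted p = 0.000154) and Fcgr1 (0.98, adjusted p = 0.00382). In 4T1 against HC11 DOX, 2 were higher, Cd68 (1.18, adjusted p = 9.72e-06) and Csf1r (0.56, adjusted p = 6.62e-06), and Fcgr1 was lower (-2.77, adjusted p = 1.69e-06), with 0 to 14 counts in each 4T1 library. Fcgr1 was named after its values were seen. The part of these genes in the Cd14 result was not tested, and Cd68 and Csf1r are also expressed outside the immune system.

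Of the 13 other genes of the lipopolysaccharide receptor pathway, 7 were higher and 2 lower with DIP, with a median log2 fold change of 0.26. Over all genes, 24.5% were higher and 21.0% lower with DIP, and 34.3% and 35.6% in 4T1 against HC11 DOX. Lbp, whose product delivers lipopolysaccharide to CD14, averaged 174 ± 205 CPM in HC11 DOX + DIP, from 4.76 to 724 CPM, against 15.2 ± 9.21 CPM in HC11 DOX (log2 fold change 3.55, adjusted p = 0.000191). Tlr4, the signalling receptor, averaged 25.4 ± 8.58 CPM in HC11 DOX + DIP against 9.50 ± 3.45 CPM in HC11 DOX (log2 fold change 1.44, adjusted p = 1.91e-05), and the adaptor gene Ticam1 rose by 1.07. In 4T1 the pathway went largely the other way from Cd14, with 2 of 13 higher and 8 lower than in HC11 DOX and a median of -0.44. Lbp was at 0.681 ± 0.448 CPM in 4T1 (log2 fold change against HC11 DOX -4.50), Tlr6 was lower by -1.99, and the adaptor gene Tirap was higher by 1.02. Against HC11 DOX + DIP, 3 of 13 were higher in 4T1 and 9 lower, with Tlr4 lower by a log2 fold change of -1.85.

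The genes that define the mammary compartments were read beside the 9 markers from lists of their own. Their counts stand beside 24.5% of all genes higher and 21.0% lower with DIP, and 34.3% and 35.6% in 4T1 against HC11 DOX. Of 15 basal and stem cell genes tested, 0 were higher and 9 lower with DIP by edgeR, with a median log2 fold change of -1.25. Leaving out DIP libraries 8 and 10 gave 1 higher and 9 lower. DESeq2 called 1 higher and 10 lower, limma voom 0 and 10, and 1 was higher at an unadjusted p under 0.05 in edgeR. Krt5 and Krt14, the basal keratins, averaged 472 ± 256 and 448 ± 222 CPM in HC11 DOX + DIP against 3070.02 ± 1222 and 1974 ± 577 CPM in HC11 DOX, and the transcription factor gene Bcl11b fell by a log2 fold change of -1.38. Of 12 luminal progenitor genes, 4 were higher and 6 lower with DIP, with a median of -0.73, among them Lcn2, which encodes lipocalin-2, at 256 ± 243 CPM in HC11 DOX + DIP against 15.2 ± 13.1 CPM in HC11 DOX (log2 fold change 4.10), and Itgb3 (-2.22) and the NOTCH target gene Hey1 (-2.36). In limma voom 4 were higher and 5 lower, as they were without DIP libraries 8 and 10, where the median was -0.49. Of 9 hormone-sensing genes, 3 were higher and 1 lower, with Tbx3 the gene that fell (log2 fold change -0.56).

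In 4T1 against HC11 DOX, 2 of 15 basal genes were higher and 11 lower, with a median log2 fold change of -3.01, led by Krt5 (-6.65), Bcl11b (-6.49) and Snai2 (-6.14). Without 4T1 libraries 1 and 2 these were at -7.69, -7.23 and -7.07 in the same order. Of 12 luminal progenitor genes 5 were higher and 7 lower, with Krt18, a keratin of simple epithelia, at 918 ± 151 CPM in 4T1 against 15.9 ± 7.77 CPM in HC11 DOX (log2 fold change 5.85), Itga2 higher by 4.99 and Lcn2 lower by -3.44. Of 10 hormone-sensing genes 5 were higher and 4 lower, with Krt19 (7.59), Wnt4 (-5.91) and Tbx3 (-5.90) the furthest moved among those well expressed, and without 4T1 libraries 1 and 2 Tbx3 was at -6.95. Relative to HC11 DOX + DIP, 2 basal genes of 15 were higher and 9 lower, 4 luminal progenitor genes of 12 were higher and 7 lower, and 5 hormone-sensing genes of 10 were higher and 3 lower. By edgeR over all libraries, these 3 lists held genes called in both directions, except the basal list with DIP.

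**Figure D3:**
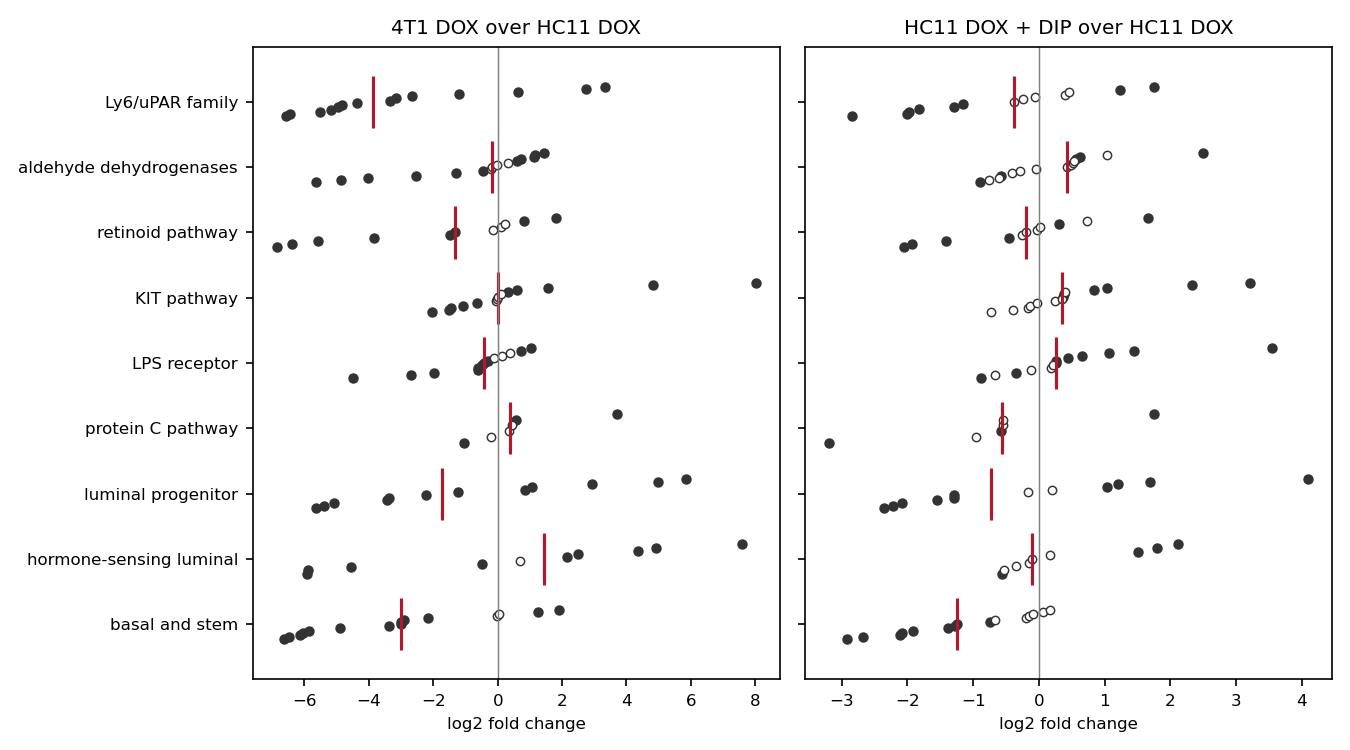
Log2 fold change of each gene tested in 9 lists around the markers, for 4T1 DOX over HC11 DOX (left) and HC11 DOX + DIP over HC11 DOX (right), with filled points at an adjusted p under 0.05 and a red line at the median of the list. The basal list has its median at -3.01 in 4T1 and -1.25 with DIP, and the Ly6/uPAR list at -3.86 and -0.38.

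Levels of different genes were compared per kilobase of exon, on the scale of CPM per kb. In HC11 DOX the order was Cd24a (187 ± 21.3), Ly6a (114 ± 31.9), Ly6d (65.2 ± 25.7), Ly6e (49.8 ± 13.1), Cd14 (1.65 ± 0.959), Procr (1.10 ± 0.218), Aldh1a3 (0.173 ± 0.0676), Kit (0.0982 ± 0.168) and Prom1 (0.0273 ± 0.0185), as means ± SD over 10 libraries. Ly6d and Ly6e, Cd14 and Procr, Aldh1a3 and Kit, and Kit and Prom1 differed by less than the larger of their SDs. On this scale the order with DIP was Cd24a (134 ± 59.3), Ly6e (38.6 ± 14.1), Ly6d (33.8 ± 20.01), Ly6a (16.1 ± 11.3), Cd14 (3.99 ± 2.68), Procr (1.48 ± 0.959), Kit (0.335 ± 0.454), Aldh1a3 (0.0662 ± 0.0578) and Prom1 (0.00686 ± 0.00369), so that Ly6a came behind Ly6e and Ly6d. Ly6e and Ly6d, Ly6d and Ly6a, Cd14 and Procr, and Kit and Aldh1a3 differed there by less than the larger of their SDs.

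In 4T1 the order on the same scale was Cd24a (77.2 ± 3.41), Procr (19.4 ± 3.23), Ly6e (11.9 ± 5.26), Cd14 (5.89 ± 0.837), Ly6a (3.18 ± 2.72), Ly6d (1.35 ± 1.44), Aldh1a3 (0.225 ± 0.0458), Prom1 (0.00562 ± 0.00213) and Kit (0.00227 ± 0.00139), over 8 libraries. Procr thus stood directly behind Cd24a, where in both HC11 groups it came behind Cd14. Cd14 and Ly6a, Ly6a and Ly6d, and Ly6d and Aldh1a3 differed by less than the larger of their SDs in 4T1, and Prom1 and Kit rest on a few counts per library. Cd24a was the highest of the 9 in each group.

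**Figure D4:**
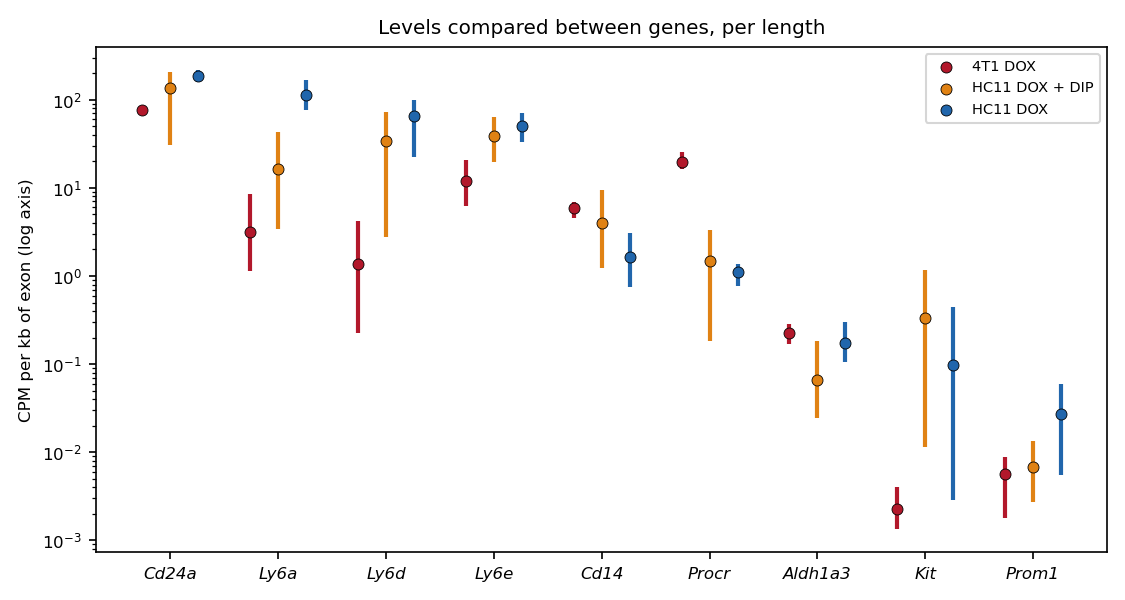
Mean level of the 9 genes in CPM per kb of exon, on a log axis, for 4T1 DOX, HC11 DOX + DIP and HC11 DOX, with bars from the lowest to the highest library. The 4T1 library with a Kit count of 0 is in the mean but not in the bar. Genes are ordered by their mean level in HC11 DOX, with Cd24a at 77.2, 134 and 187 and Prom1 at 0.00562, 0.00686 and 0.0273 in these groups.

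Across the 28 libraries the genes most like each marker were found by the Pearson correlation of log2 CPM among 10491 genes, as a description, since libraries of a group share a line and a treatment and the differences between groups carry most of each value. Kit, Aldh1a3 and Prom1 were too low for this. The genes most like Ly6a were Ly6c1 (r = 0.977), which shares sequence with it, and Igfbp3 (0.969), which encodes a binding protein for insulin-like growth factors and averaged 3.82 CPM in 4T1, 37.4 CPM in HC11 DOX + DIP and 412 CPM in HC11 DOX. Ly6d was most like Gas1 (0.983) and Cnmd (0.978), Ly6e most like Ssbp3 (0.978) and Tmem154 (0.948), and Cd24a most like Rtkn (0.970) and Fam160a1 (0.955). Cd14 was most like Wfdc2 (0.938), at 465 CPM in 4T1, 202 CPM in HC11 DOX + DIP and 122 CPM in HC11 DOX, and Nfkbia (0.880), which encodes an inhibitor of NF-kB and averaged 63.8, 37.5 and 21.0 CPM. Procr was most like S100a6 (0.972), which encodes a calcium-binding protein and averaged 2245 CPM in 4T1, 287 CPM in HC11 DOX + DIP and 305 CPM in HC11 DOX, and Zfp697 (0.968).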

How the data were processed

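Cells of both lines were lysed in TRIzol, and libraries were made from ribosome-depleted total RNA with a NEBNext Ultra II kit, per the labels' protocols. The deposited values are raw read counts per gene, 1 table per library. The submitters' processing notes name fastp 0.23.2, featureCounts 2.0.1 and the mouse build GRCm39. Not given in the sources used here are the aligner, the strand setting and the treatment of reads that match several genes. A gene and an antisense partner therefore cannot be told apart, which concerns Prom1, overlapped by Gm16401 (0 counts).

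Groups came from the cell line and treatment labels. Symbols, exon lengths and positions came from GENCODE vM21 (GRCm38), not the build of the counts, and named 52073 of 56748 identifiers. Promoter windows came from RefSeq (GRCm38.p6). Windows on chromosome 18, where Cd14 lies, were left out, and after that 3 of the 9 genes had a window. Of 181 listed names 179 matched: Ly6m did not, and Siglec10 shares its identifier with Siglecg.

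Each comparison was fitted with edgeR 4.0.16 under R 4.3.3 on the libraries of its groups only, with filterByExpr, TMM factors, robust glmQLFit and glmQLFTest, and Benjamini-Hochberg adjustment over all genes tested. The standard error is the log2 fold change divided by the square root of F and 95% intervals span 1.96 of them on either side. The procedure was tested on simulated data with known changes. For DIP in HC11 it recovered 19.35% of 1.5-fold, 57.75% of 2-fold and 85.07% of 4-fold changes. These shares were 38.67%, 64.29% and 94.2% for 4T1 against HC11 DOX, and 20.31%, 50.77% and 85.92% against HC11 DOX + DIP. In each simulation far fewer genes were changed than were called in the data. For DIP in HC11, 62, 71 and 67 of 23829 genes were changed by these folds, with 7 false calls. In the data 45.5% were called. The recovered shares therefore describe the simulations and not the power of the reported tests. A gene not called may still differ by a small fold. Alternatives were RLE and upper quartile factors, no filter, DESeq2 1.42.0, limma 3.58.1 voom, 1 fit of all 3 groups and raw library totals. Added after seeing the data were fits without DIP libraries 8 and 10, without 4T1 libraries 1 and 2, and without each library in turn.

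All 9 genes are named throughout. Of each list, up to 3 called genes with the largest change at a mean log2 CPM of at least 2 are named, and for each marker the 2 most like genes that are not predicted models. Ly6i and Ly6c2 are named as sequence relatives. The 9 genes, the lists and the rules were chosen with earlier results of these data known, so no list is independent evidence. The log2 CPM values behind correlations used a prior count of 2. Depth was 174275141 to 198008179 counts in 4T1, 134117581 to 222065843 in HC11 DOX + DIP and 135955692 to 185616382 in HC11 DOX, and floors cover counting error only.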

Additional observations from a re-analysis of the deposited data

Results flagged for a closer look

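In 27 groups of libraries, 9 genes in 3 groups each, the highest and the lowest library were compared with the rest, and 2 lay further from their nearest neighbour than the 95% critical value of Dixon's test allows; chance gives about 1 in 20 groups. Ly6a in HC11 DOX + DIP library 2 was at 52.0 CPM, where the next highest of the 10 libraries was at 25.9 CPM, a gap of 0.545 of the whole range against a critical value of 0.466. Even so this library was below every HC11 DOX library. Cd24a in 4T1 library 3 was at 181 CPM, where the next lowest of the 8 libraries was at 195 CPM, a gap of 0.528 of a narrow range against a critical value of 0.526.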

How the results depend on the processing

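Across the alternatives other than leaving out single libraries, 177 of 183 results for a gene kept their direction and their side of the threshold. Of the others, 5 passed the threshold only under the alternative (Ly6d with DIP in DESeq2, in limma voom and without DIP libraries 8 and 10, Procr with DIP without those libraries, and Cd14 in 4T1 against HC11 DOX + DIP in limma voom), and 1 no longer passed it (Cd24a in that comparison in limma voom). The cause was not tested. No direction reversed. Without DIP libraries 8 and 10, 2 of the 9 genes were called higher with DIP instead of 1. Leaving out single libraries gave 1 to 2 called higher with DIP, and 462 of 468 results for a gene stayed as they were. Raw library totals in place of TMM moved 1 of 27 mean levels by more than 1 SD, that of Cd24a in 4T1 (177 against 199 CPM). The median log2 fold change of all genes moved by over 0.1 only for 4T1 against HC11 DOX + DIP, to -0.14 with RLE and -0.20 with upper quartile factors, from -0.04. No paired analysis was possible because the labels give no replicate numbers that groups share. Depth limits Kit in 4T1 and Prom1 in 4T1 and HC11 DOX + DIP, with 27, 54 and 86 counts over all libraries of the group.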
